A study of Homo sapiens with 6 samples.

Results

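Transcript signals of 5 secreted signalling proteins were examined in ovarian cancer cell lines transfected with miR-135a-3p or with miR-blank. The genes were the neutrophil chemokines CXCL2, CXCL3 and CXCL8, the chemokine CCL20 and the cytokine LIF. They were found by their symbols in the platform annotation, 1 probe set each, and are 5 of 14884 named genes and 5 of the 8620 genes that passed a filter on low signal. They were chosen by their log2 differences between miR-135a-3p and miR-blank within the lines, so those differences are given as a description and without a test.

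The lines were SKOV-3, ES-2 and OVCAR-3, all grown from human ovarian cancers, and each gave 1 Affymetrix array after miR-135a-3p and 1 after miR-blank. Values are log2 signals, and a transfection difference is miR-135a-3p minus miR-blank, so that a difference of −1 is a halving of the signal. The labels do not say whether a synthetic RNA or a vector was used, at what dose, or when the cells were collected. Signals come from whole cultures, in which fewer expressing cells and less RNA per cell cannot be told apart. The number of arrays limits the precision, and the table holds no detection calls, so a signal below the median of its array (4.16 to 4.23) is treated here as not shown to be above background.

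Chemokines are small secreted proteins that steer migrating cells through receptors coupled to G proteins. CXCL2, CXCL3 and CXCL8 carry the ELR motif, act through CXCR2, and in the case of CXCL8 also CXCR1, and draw neutrophils. CCL20 acts through CCR6 and draws immature dendritic cells and some T cells, and LIF, a cytokine of the IL-6 family, signals through LIFR and IL6ST to STAT3. All 5 genes are known to respond to inflammatory signals, in large part through the transcription factor NF-kB, and tumour cells of the ovary are a known source of such chemokines.

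The transfected microRNA and the promoters of the chemokines are shown because the first defines the treatment and the second carry a short stretch in common. The mature microRNA, from RefSeq (GRCh38.p14, chr3:52294232-52294253, minus strand), has its seed, bases 2 to 8, in capitals:
miR-135a-3p: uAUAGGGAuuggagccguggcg
RefSeq promoter sequences, 250 bases before to 50 after the gene start, matched 4 of the 5 genes: CXCL2, CXCL3, CXCL8 and CCL20. Each held the letters GGAANNNCC, a core of the kind NF-kB binds, which was searched on both strands and written with these promoters in view. The stretches of 60 bases around the match run 5′ to 3′ on the strand of the gene, with the match in capitals:
CXCL2 (chr4:74099238-74099297, minus strand): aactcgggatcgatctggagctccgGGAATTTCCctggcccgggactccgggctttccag
CXCL3 (chr4:74038733-74038792, minus strand): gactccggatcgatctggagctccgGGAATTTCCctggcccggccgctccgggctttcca
CXCL8 (chr4:73740453-73740512, plus strand): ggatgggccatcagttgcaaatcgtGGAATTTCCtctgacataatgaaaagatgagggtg
CCL20 (chr2:227813738-227813797, plus strand): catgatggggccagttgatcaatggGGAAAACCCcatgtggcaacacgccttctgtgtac

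The match began at −77 in CXCL2, −78 in CXCL3, −91 in CXCL8 and −79 in CCL20, counted from the gene start. CXCL2, CXCL3 and CXCL8 had the same 9 letters there, and CCL20 had others that fit the same pattern. A match of this pattern was held by 20.1% of 27305 promoters of the same length, so it is common, and a match is not a binding site. The stretches of CXCL2 and CXCL3 were identical at 47 of 60 bases when set side by side without gaps, while the other pairs shared 20 to 22 bases. The AP-1 letters TGANTCA occurred in the CXCL8 promoter, at −137, and in 7.76% of all promoters. CXCL2 and CXCL3 also held a further match of GGAANNNCC, read on the other strand, at −53.

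The probe set annotated to MIR135A1, the hairpin gene of miR-135a, was read first as a check of the transfection. It read 11.58 in SKOV-3, 12.57 in ES-2 and 12.20 in OVCAR-3 after miR-135a-3p, against 2.07, 1.75 and 2.26 after miR-blank. Every array thus matched its transfection label, while the line labels are not checked by this probe set. The arrays of a line correlated over all probe sets at 0.979 in SKOV-3, 0.987 in ES-2 and 0.984 in OVCAR-3, so the SKOV-3 pair was the least alike. Log2 differences over the 8620 genes had an SD of 0.48 in SKOV-3 and 0.30 in each of ES-2 and OVCAR-3. KRT18, a keratin of simple epithelia, read 9.36 to 10.47 on all 6 arrays, while PAX8, a factor of the Mullerian lineage, read 8.12 and 8.80 in SKOV-3 and 4.12 to 4.80 in the other lines. KRT8, the partner of KRT18, read 5.29 to 6.75, and WT1, a marker of serous tumours, 5.59 to 7.15. Of 8 such markers 7 were named on the array, and some differed within SKOV-3: MSLN by 1.41, KRT7 by −1.53 and WT1 with 7.15 after miR-135a-3p, against 6.14 after miR-blank. Their part in the results was not tested.

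In SKOV-3 the chemokines had lower signal after miR-135a-3p than after miR-blank, by 2.18-fold for CXCL3 to 7.59-fold for CCL20, while LIF had higher signal. In ES-2 none of the 5 genes differed by 2-fold. In OVCAR-3, CXCL3 was lower and LIF higher, each by more than 2-fold. The largest difference was in SKOV-3 for CXCL2, CXCL8 and CCL20 and in OVCAR-3 for CXCL3 and LIF.

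CXCL8, also called interleukin-8, read 7.66 after miR-135a-3p, against 10.39 after miR-blank, in SKOV-3. It read 8.23 against 8.94 in ES-2, and 3.53 against 3.21 in OVCAR-3. SKOV-3 held the highest CXCL8 signal of all arrays after miR-blank, and a lower signal than ES-2 after miR-135a-3p. In OVCAR-3 both arrays lay below the array median, so CXCL8 was not shown to be above background there. The log2 difference was −2.74 in SKOV-3 (6.66-fold), −0.71 in ES-2 (1.64-fold) and 0.32 in OVCAR-3, a mean of −1.04 ± 1.56 (SD, n = 3 lines).

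CXCL2 read 7.53 after miR-135a-3p, against 9.74 after miR-blank, in SKOV-3. It read 6.74 against 6.51 in ES-2, and 5.80 against 5.62 in OVCAR-3. In ES-2 and OVCAR-3 the 2 arrays were thus nearly level, and all 6 signals were above the array medians. The difference was −2.21 in SKOV-3 (4.62-fold), 0.23 in ES-2 and 0.18 in OVCAR-3, a mean of −0.60 ± 1.39 (SD, n = 3 lines).

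CXCL3, the close relative of CXCL2 whose gene lies next to it, read 5.33 after miR-135a-3p, against 6.45 after miR-blank, in SKOV-3. It read 5.08 on both arrays of ES-2, and 3.47 against 4.85 in OVCAR-3. The signal was lower after miR-135a-3p in 2 of the 3 lines, and in OVCAR-3 the miR-135a-3p array lay below the array median, so the size there is uncertain. The difference was −1.12 in SKOV-3 (2.18-fold), 0.01 in ES-2 and −1.38 in OVCAR-3 (more than 2-fold), a mean of −0.83 ± 0.74 (SD, n = 3 lines). CXCL2 and CXCL3 thus parted in OVCAR-3. The 2 genes are near-identical over parts of their transcripts, so probes may pick up both, which was not tested, and their separate values are uncertain to that extent.

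CCL20 read 6.39 after miR-135a-3p, against 9.31 after miR-blank, in SKOV-3. It read 4.31 against 4.37 in ES-2, and 3.83 against 4.28 in OVCAR-3. CCL20 signal stood clear of the array medians in SKOV-3 alone among these lines, and lay within 0.5 of them on the other 4 arrays, where a lower value could hardly be measured. The difference was −2.92 in SKOV-3 (7.59-fold), −0.06 in ES-2 and −0.46 in OVCAR-3, a mean of −1.15 ± 1.55 (SD, n = 3 lines).

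LIF read 7.67 after miR-135a-3p, against 6.97 after miR-blank, in SKOV-3. It read 7.02 against 7.29 in ES-2, and 5.68 against 4.51 in OVCAR-3. On the miR-blank array of OVCAR-3 it lay near the array median of 4.19, so the size there is uncertain. LIF went the other way from the chemokines in SKOV-3, and in OVCAR-3 it was higher where CXCL3 was lower. The difference was 0.69 in SKOV-3 (1.62-fold), −0.27 in ES-2 and 1.17 in OVCAR-3 (2.25-fold), a mean of 0.53 ± 0.73 (SD, n = 3 lines).

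**Figure D1:**
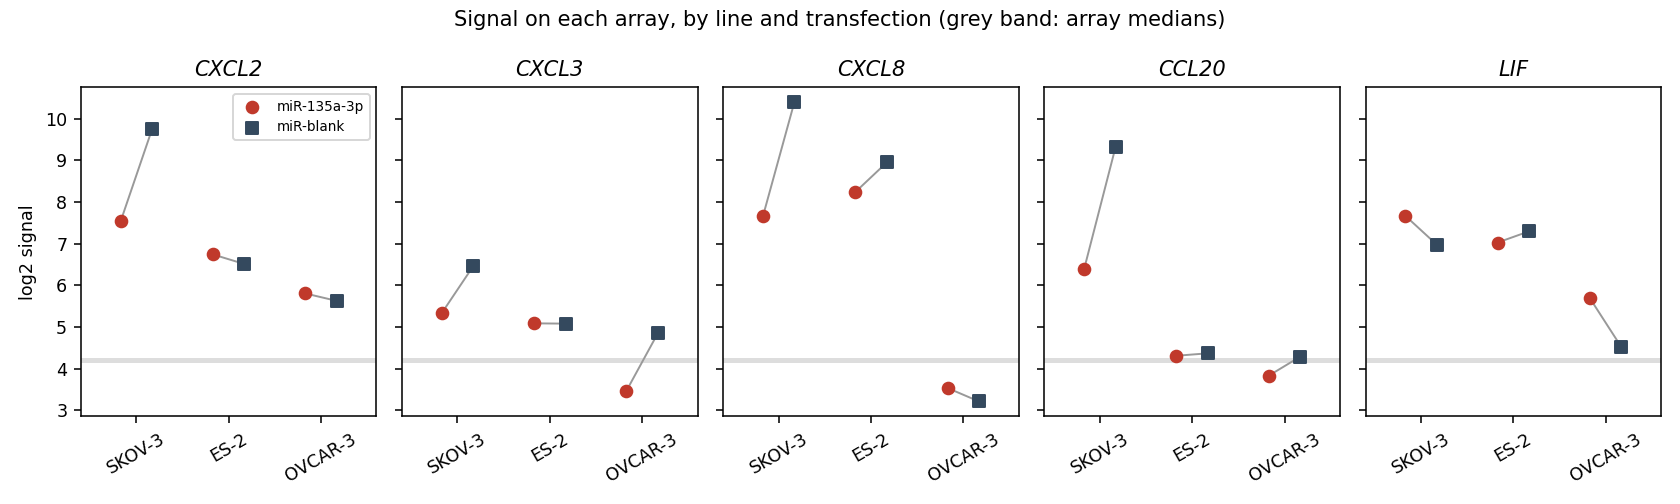
Log2 signal (y axis) of CXCL2, CXCL3, CXCL8, CCL20 and LIF on each of the 6 arrays, by line (x axis), with miR-135a-3p as red circles and miR-blank as dark squares, joined within a line; the grey band spans the array medians, 4.16 to 4.23. In SKOV-3 the chemokines lie lower after miR-135a-3p, while LIF lies higher.

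CXCL2, CXCL3, CXCL8 and CCL20 were at least 2-fold lower in SKOV-3, 4 of 5 genes, where 1.66% of all tested genes were, and 0 of the 5 were at least 2-fold higher, where 2.34% were. In SKOV-3, CCL20 had the 5th lowest difference of 8620 genes, CXCL8 the 6th, CXCL2 the 11th and CXCL3 the 105th. In OVCAR-3, where 0.383% of tested genes were at least 2-fold lower and 0.29% at least 2-fold higher, CXCL3 had the 10th lowest and LIF the 19th highest difference. In ES-2, 0 of the 5 genes were at least 2-fold lower or higher, where 0.51% and 0.162% of tested genes were, and CXCL8 came closest, at the 112th lowest place. These ranks are from the contrast on which the genes were picked, and nothing is read from them.

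CCL20 was the 1 gene of the 5 with lower signal in all 3 lines, at −2.92, −0.06 and −0.46, as 13.4% of tested genes were, and 0 of the 5 were higher in all 3 lines, as 9.54% were. Over the 3 lines limma, with the line as a block, called 1 of 8620 genes (0.0116%) at an adjusted p under 0.05, and that gene was MIR135A1. At an unadjusted p under 0.05 it gave 251 genes (2.91%). Leaving out SKOV-3 changed the mean differences to −0.19 for CXCL8, 0.20 for CXCL2, −0.26 for CCL20, −0.69 for CXCL3 and 0.45 for LIF, so for CXCL8, CXCL2 and CCL20 the SKOV-3 pair decided the mean.

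**Figure D2:**
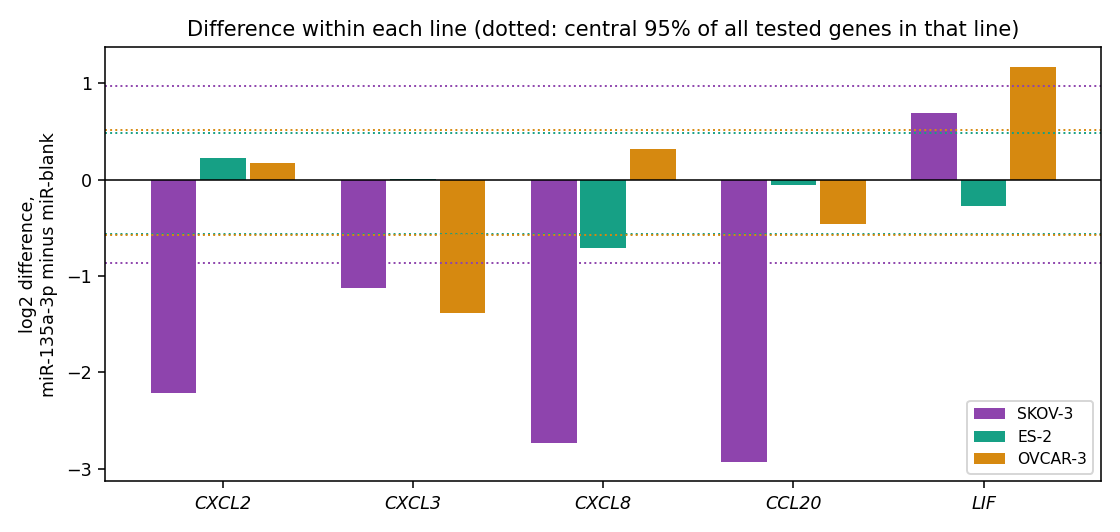
Log2 difference, miR-135a-3p minus miR-blank (y axis), of each gene in SKOV-3 (purple), ES-2 (green) and OVCAR-3 (orange), 1 pair of arrays per bar; dotted lines enclose the central 95% of 8620 tested genes in the line of that colour. CXCL2, CXCL8 and CCL20 lie below −2 in SKOV-3 and between −0.71 and 0.32 elsewhere.

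The lines had different signals of these genes, a comparison that joins both arrays of a line (n = 2 each) and sets the transfection as a block. The genes were chosen on within-line differences that use the SKOV-3 arrays, and a large fall there needs a high level, so SKOV-3 against the other lines is given as a description, without p-values, and nothing is read from its counts. CCL20 and CXCL3 moreover passed the filter on low signal only through SKOV-3: over the arrays of ES-2 and OVCAR-3 they averaged 4.197 and 4.62, under the required mean of 5. The test is kept for ES-2 against OVCAR-3, where limma calls a gene at an adjusted p under 0.05 over all genes and at least 2-fold. Its p-value is given for CXCL2 alone. CXCL8, CXCL3 and CCL20 passed the filter on low signal only through lines where they are high, and LIF is described below. Differences within ES-2 and OVCAR-3 were part of the choice as well, so the p-value of CXCL2 is not free of that choice. Nothing in the labels says that the arrays of a line came from separate cultures, so p-values measure the spread between these arrays, which may be technical.

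CXCL8 averaged 9.02 in SKOV-3 and 3.37 in OVCAR-3, where both arrays lay below the array median, so the gap is given as a bound: with the array medians as the floor it was at least 28.1-fold. The SKOV-3 minus OVCAR-3 difference was 3.79 for CCL20, 2.92 for CXCL2, 2.22 for LIF and 1.74 for CXCL3. Without the miR-blank array of SKOV-3 it was 2.46 for CCL20 and 1.72 for CXCL2, so that array carried much of both. The thresholds of the test were passed, as higher in SKOV-3, by 5 of the 5 genes, where 14.6% of tested genes passed in either direction, 8.96% as higher and 5.6% as lower. With 1 OVCAR-3 array left out, CXCL2 and CCL20 (without its miR-blank array) or CXCL3 (without its miR-135a-3p array) no longer passed.

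CCL20 averaged 7.85 in SKOV-3 and 4.34 in ES-2, a log2 difference of 3.52. CXCL2 differed by 2.01 between the same lines, and by 0.80 without the miR-blank array of SKOV-3. CXCL3 differed by 0.81 (95% interval 0.02 to 1.61), CXCL8 by 0.43 (−1.09 to 1.96) and LIF by 0.16 (−0.63 to 0.95). The thresholds were passed by CCL20 and CXCL2, 2 of the 5 genes, where 12.1% of tested genes passed in either direction and 7.29% as higher. CXCL2 no longer passed without a filter, at equal array medians, after quantile normalization or without any 1 of 4 of the 6 arrays.

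ES-2 was higher than OVCAR-3 for CXCL8 and LIF, where 16.5% of tested genes were called in either direction and 8.65% as higher. CXCL8 averaged 8.59 in ES-2 and 3.37 in OVCAR-3, at least 20.8-fold higher in ES-2 with the array medians of OVCAR-3 as the floor. The measured difference was 5.22. CXCL8 passed the filter on low signal only through SKOV-3 and ES-2. Its gap is thus given without a p-value, and its pass of the thresholds is a description. LIF averaged 7.16 in ES-2 and 5.10 in OVCAR-3, a difference of 2.06 ± 0.33 (SE), and of 1.58 without the miR-blank array of OVCAR-3. This gap was 1.34 on the miR-135a-3p arrays and 2.78 on the miR-blank arrays. LIF had its largest transfection difference in OVCAR-3, and the genes were chosen on such differences. Its gap is therefore a description without a p-value, and nothing is read from its pass of the thresholds. CXCL2 differed by 0.91 (95% interval −0.47 to 2.29, limma adjusted p = 0.286) and was not called. CXCL3 differed by 0.92 (0.13 to 1.72) and CCL20 by 0.28 (−1.24 to 1.80), and neither passed the thresholds. Both passed the filter on low signal only through SKOV-3, and CCL20 lay near the array medians in ES-2 and OVCAR-3. Nothing is therefore read from their not passing. The order of the lines was thus SKOV-3, ES-2, OVCAR-3 for each gene by its mean. Between ES-2 and OVCAR-3 the thresholds were passed by CXCL8 and by LIF, and for both this is a description. The difference of CXCL2 did not pass the test, and for CXCL3 and CCL20 no test result is read.

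**Figure D3:**
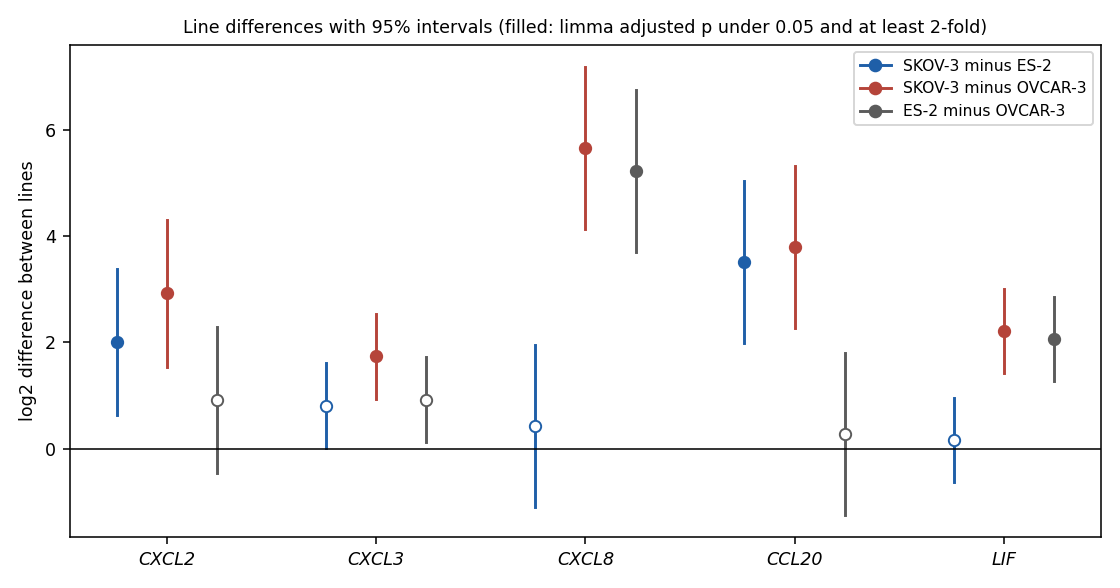
Log2 difference between lines (y axis) for each gene, with 95% intervals from limma, for SKOV-3 minus ES-2 (blue), SKOV-3 minus OVCAR-3 (red) and ES-2 minus OVCAR-3 (grey). Filled points passed the thresholds of the test, from which nothing is read for SKOV-3, for CXCL8 or for LIF. The grey points of CXCL8 and LIF are filled, and the CXCL8 points against OVCAR-3, at 5.65 for SKOV-3 and 5.22 for ES-2, rest on OVCAR-3 signals below the array medians.

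The gaps between lines were not the same on the arrays of both transfections. The SKOV-3 minus ES-2 gap of CCL20 was 2.08 on the miR-135a-3p arrays and 4.95 on the miR-blank arrays. For CXCL2 it was 0.79 on the miR-135a-3p arrays and 3.23 on the miR-blank arrays. For CXCL8 and LIF the order of these lines turned. CXCL8 had −0.58 on the miR-135a-3p arrays and 1.45 on the miR-blank arrays, and LIF had 0.64 and −0.32. Set against OVCAR-3, the SKOV-3 gap of CCL20 was 2.56 on the miR-135a-3p arrays and 5.03 on the miR-blank arrays, and that of CXCL2 was 1.73 and 4.11.

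The remaining named ELR chemokines had no difference past 2-fold in any line. CXCL5, whose gene lies on chromosome 4 between PPBP and CXCL3, read 4.47, 11.97 and 4.03 in SKOV-3, ES-2 and OVCAR-3 after miR-135a-3p, against 4.30, 12.10 and 4.41 after miR-blank. It was high in ES-2 alone of these lines. SKOV-3 minus ES-2 was −7.65 and ES-2 minus OVCAR-3 7.82. CXCL5 passed the filter on low signal only through ES-2, so these differences are given without p-values. Its means in SKOV-3 and OVCAR-3, 4.38 and 4.22, lay near the array medians, so the size of both differences is uncertain. Its transfection differences were 0.17, −0.12 and −0.38 in SKOV-3, ES-2 and OVCAR-3. CXCL6 read 2.90 to 3.44 and PPBP, the platelet basic protein, 1.22 to 2.12 on all 6 arrays, below the array medians. CXCL1 was not analysed here.

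Of 39 further chemokines and IL-6 family cytokines that were named on the array, 2 were at least 2-fold lower in SKOV-3 and 0 higher, and 0 passed 2-fold in ES-2 or OVCAR-3. Among tested genes the shares lower and higher were 1.66% and 2.34% in SKOV-3, 0.51% and 0.162% in ES-2, and 0.383% and 0.29% in OVCAR-3. Most of the 39 were not tested, so these shares are no exact match. The 2 lower genes were CCL2, which draws monocytes, and CCL28, an epithelial chemokine, and both were named after their values were seen. CCL2 read 2.82 after miR-135a-3p, against 4.44 after miR-blank, in SKOV-3, and CCL28 read 3.23 against 4.71. Neither passed the filter, and both lay below the array median after miR-135a-3p, so the sizes are uncertain. Only 10 of the 39 passed the filter on low signal, while 16 lay below the array median on all 6 arrays, 13 lay above it on all 6, and 10 lay on both sides.

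CXCL16, a membrane-bound chemokine, read 4.43 and 3.86 in ES-2 and 7.71 to 8.24 in the remaining lines. SKOV-3 minus ES-2 was 3.82. CXCL16 passed the filter on low signal only through SKOV-3 and OVCAR-3, so this difference is given without a p-value. In ES-2 the miR-blank array lay below the array median and the miR-135a-3p array near it, so sizes that rest on ES-2 are uncertain. CXCL16 differed by 0.51, 0.58 and −0.06 between transfections in SKOV-3, ES-2 and OVCAR-3. The other tested CXC genes, PF4 and CXCL17, differed by 0.40 and −0.47 in SKOV-3 and by at most 0.32 in size elsewhere. CCL5, CCL17, CX3CL1 and CCL27 lay between −0.33 and 0.53 in all lines.

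**Figure D4:**
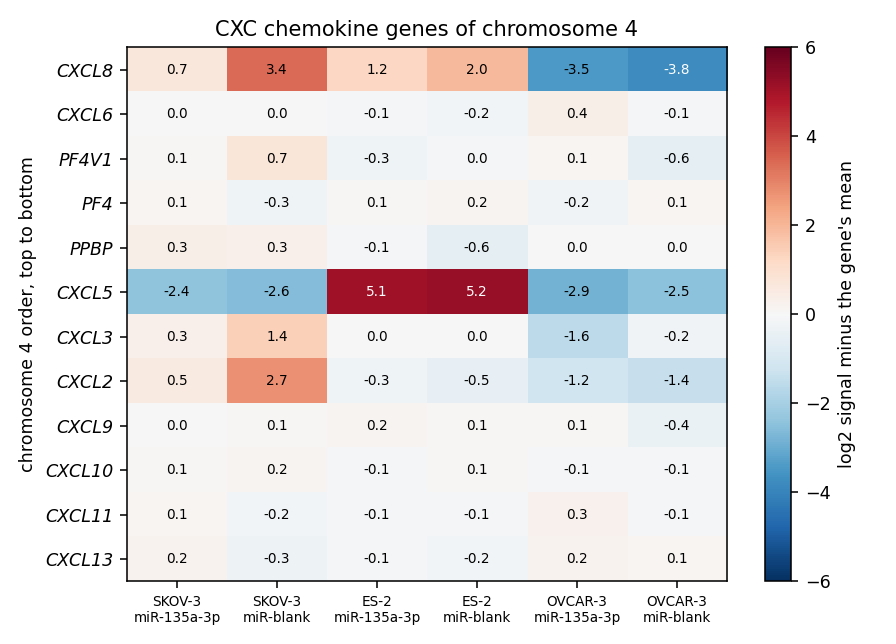
CXC chemokine genes of chromosome 4 in genome order (rows) on the 6 arrays (columns); colours and printed values are log2 signals minus the mean of that gene. CXCL8, CXCL3 and CXCL2 are highest on the SKOV-3 miR-blank array, while CXCL5, between PPBP and CXCL3, is high in ES-2.

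Receptors were mostly not shown to be above background. CXCR1 (3.29 to 3.81), CXCR2 (3.01 to 4.09) and CCR6 (3.26 to 3.93) lay below the array median on every array. LIFR, the receptor of LIF, read 6.06, 6.43 and 3.29 in SKOV-3, ES-2 and OVCAR-3 after miR-135a-3p, against 6.08, 6.60 and 3.57 after miR-blank. Both OVCAR-3 arrays lay below the array median, so LIFR was at least 3.64-fold higher in SKOV-3, and in ES-2 at least 4.95-fold higher, than there, with the array medians as the floor. LIFR passed the filter on low signal only through SKOV-3 and ES-2, so these gaps are given without p-values. Its transfection differences lay between −0.28 and −0.02. Among IL-6 family cytokines, IL11 and CTF1 passed the filter, with transfection differences between −0.17 and 0.54, and OSM read 3.90 to 4.11.

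Genes around these in the NF-kB and STAT3 pathways were taken from 5 lists of 61 genes, of which 36 were named on the array and 30 tested. In SKOV-3, 6 of the 30 were at least 2-fold lower (20%, against 1.66% of all tested genes) and 0 were higher. TNF, 1 of these 6, passed the filter (mean 5.01) only through its high signal on the SKOV-3 miR-blank array. In ES-2 and in OVCAR-3, 0 of the 30 passed 2-fold. The median difference of the 30 genes was −0.09 in SKOV-3, −0.07 in ES-2 and −0.11 in OVCAR-3, beside 0.02, −0.01 and −0.05 over all tested genes. The lists were written with earlier results of these arrays known, so the count is a description.

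TNF, the cytokine tumour necrosis factor, read 4.68 after miR-135a-3p, against 7.25 after miR-blank, in SKOV-3, a difference of −2.57. It read 4.40 against 4.48 in ES-2, and 4.51 against 4.70 in OVCAR-3. TNF signal was thus raised on the SKOV-3 miR-blank array and within 0.6 of the array medians on the others. It passed the filter on low signal only through that array. All 8 probe sets named TNF gave between −2.57 and −2.37 in SKOV-3, but they were read from the same 2 arrays and are no replicates. Of the other inflammatory NF-kB targets, IRF1, an interferon regulatory factor, had −1.18 and CSF1, the macrophage growth factor, −1.16 in SKOV-3, with −0.38 to 0.26 in ES-2 and OVCAR-3. IER3, an early response gene, had −0.999, just short of 2-fold, but its 11 probe sets ran from −0.999 to −0.32. The median of the 8 tested targets was −0.91 in SKOV-3, −0.02 in ES-2 and −0.12 in OVCAR-3. VCAM1, an adhesion molecule that did not pass the filter and was named after its values were seen, was the exception in ES-2, at 3.58 after miR-135a-3p, against 6.67 after miR-blank.

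Of 16 listed NF-kB subunits and inhibitors 9 were tested, and BCL3 alone passed 2-fold. BCL3, a nuclear partner of NF-kB, read 6.72 after miR-135a-3p, against 7.99 after miR-blank, in SKOV-3 (−1.27). It differed by −0.08 and −0.19 in ES-2 and OVCAR-3. REL had −0.55 in SKOV-3, and RELA had 0.02 there and −0.67 in OVCAR-3. The deubiquitinase CYLD, which restrains NF-kB, had 0.06, 0.55 and 0.19 in SKOV-3, ES-2 and OVCAR-3. The median of the 9 tested genes was −0.00 in SKOV-3, −0.12 in ES-2 and −0.17 in OVCAR-3.

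ZC3H12A, a ribonuclease that degrades inflammatory mRNAs and is itself induced by NF-kB, read 6.76 after miR-135a-3p, against 8.02 after miR-blank, in SKOV-3 (−1.25). The other tested factors of this list, KHSRP and MAPKAPK2, had 0.07 and −0.06 there. PIM1, a kinase and target of STAT3, had −1.23 in SKOV-3, −0.14 in ES-2 and 0.38 in OVCAR-3. SOCS3, the feedback inhibitor induced by LIF, had −0.15, −0.25 and 0.00 in the same lines. Its 2 probe sets gave −0.15 and 0.04 in SKOV-3, and −0.25 and −0.71 in ES-2. STAT3 and JAK1 had −0.50 and −0.49 in SKOV-3. LIF itself had 0.69 there. Upstream, IRAK1, a kinase below the IL-1 receptor, had 0.72 and IL17RC, a chain of the IL-17 receptor, −0.66 in SKOV-3, IL1RAP had −0.62 in OVCAR-3, and the median of 5 tested genes in SKOV-3 was 0.30.

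**Figure D5:**
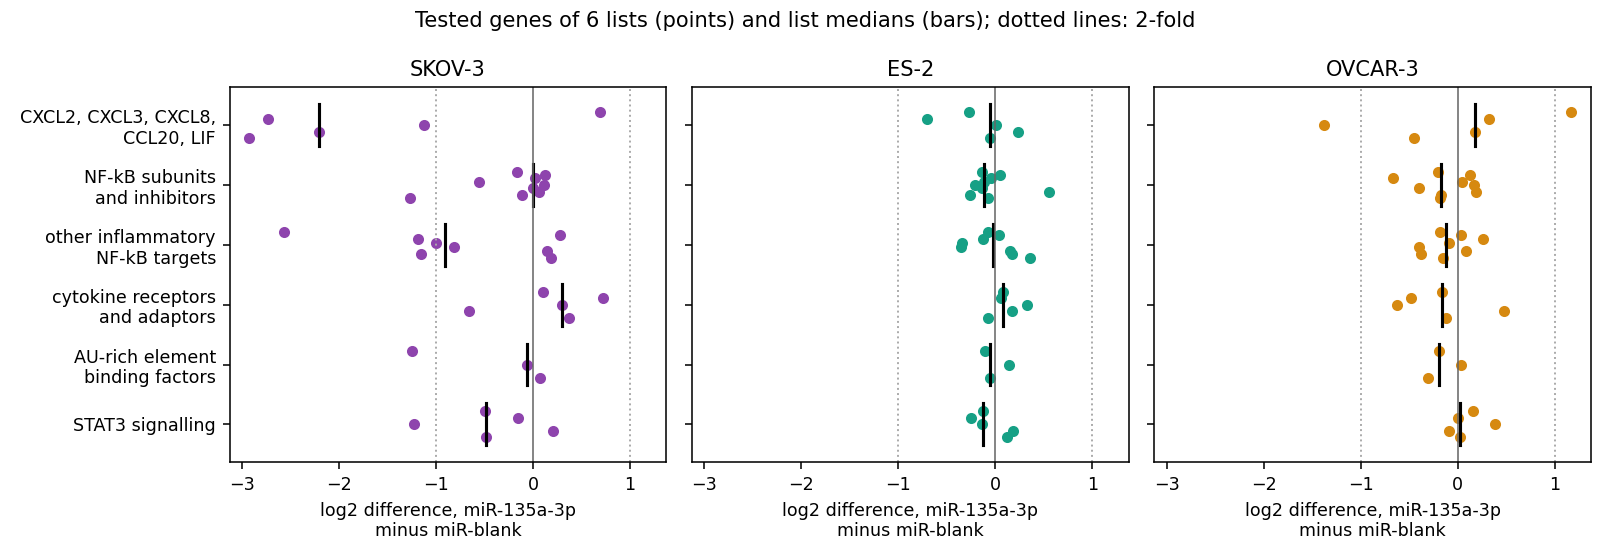
Log2 difference, miR-135a-3p minus miR-blank (x axis), of the tested genes of 6 lists (rows) in SKOV-3, ES-2 and OVCAR-3 (panels); points are genes, black bars list medians and dotted lines 2-fold. In SKOV-3, 6 genes of the lower 5 rows lie below −1, and in ES-2 and OVCAR-3 0 do.

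CXCL2, CXCL3, CXCL8 and CCL20 all had their highest signal on the SKOV-3 miR-blank array, as did 10 of the 30 pathway genes and 17.8% of all tested genes. The pathway genes included BCL3, IRF1, IER3, ICAM1, ZC3H12A and TNF, which passed the filter only through that array. With 1 array per line and transfection, a high value of that array and a low value of the miR-135a-3p array cannot be told apart by replicates. LIF had its highest signal on the SKOV-3 miR-135a-3p array, as did 20.2% of tested genes.

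Single markers of other cells also differed between the SKOV-3 arrays. Of 15 leukocyte markers, 8 were named on the array. The log2 of their summed signals, in which a strong gene weighs most, was 8.35 to 10.41 after miR-135a-3p and 8.41 to 10.55 after miR-blank. In SKOV-3 it was 10.41 after miR-135a-3p, against 8.70 after miR-blank, carried by the lysosomal protein CD68 (10.20 against 7.96), which is also high in ES-2. TYROBP and S100A9, the other leukocyte markers that passed the filter, differed by 0.70 and −0.05 in SKOV-3. CD14, which defines monocytes, read 3.40 to 3.74 on all arrays, below the array medians, and 4 or 5 of the 8 markers lay below the array median on each array. Of 8 stromal markers, 5 were named, and the log2 of their summed signals was 6.07 to 6.32 after miR-135a-3p and 6.05 to 7.06 after miR-blank. The matrix proteoglycan LUM read 2.84 after miR-135a-3p, against 6.05 after miR-blank, in SKOV-3, and was named after its values were seen. DCN, VWF, KDR and PECAM1, the rest of the named stromal markers, differed there by 0.12, 0.10, −0.25 and −0.43. The part of these markers in the chemokine differences was not tested.

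For each of the 5 genes the 3 tested genes with the most similar pattern over the 6 arrays were sought, by the root mean square distance of log2 signals after subtracting the mean of each gene. CXCL2 was closest to DHRS3, a retinal reductase, at a distance of 0.19 where CXCL2 itself varied by 1.38, followed by TPD52L1 (0.36) and the transcription factor MSC (0.44). CCL20 varied by 1.93 and was closest to the adhesion receptor ADGRG1 (0.40), CAVIN2, a caveolar protein (0.53), and CRABP2, which carries retinoic acid (0.57). These genes share a high SKOV-3 level that was lower after miR-135a-3p, for example 6.44 against 8.41 for DHRS3 and 6.38 against 8.48 for CAVIN2.

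CXCL8 varied by 2.70 and was closest to HIVEP2, a zinc finger protein that binds NF-kB motifs (0.73), the transcription factor NFIB (0.77) and UTRN, which codes for utrophin (0.80). All of them were low in OVCAR-3 and lower in SKOV-3 after miR-135a-3p than after miR-blank. There UTRN read 6.94 against 8.62, NFIB 8.31 against 9.28 and HIVEP2 7.66 against 8.53. CXCL3 varied by 0.88 and was closest to RGS17 (0.27), a regulator of G protein signalling, MAMLD1 (0.30) and ZNF626 (0.32). LIF varied by 1.09 and was closest to the peroxidase GPX1 (0.26), LRIG3 (0.26) and the sulfotransferase CHST7 (0.27). With 6 arrays from 3 lines, close patterns mostly follow the lines.

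Among the 5 genes, CXCL2 and CCL20 were the closest pair, at a distance of 0.68, and CXCL2 was the 7th closest of 8392 genes to CCL20. CXCL2 and CXCL3 stood 0.79 apart. CXCL8 stood 1.81 to 2.07 from each of the other 4. LIF stood 1.02 to 1.87 from the chemokines.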

How the data were processed

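Gene expression was measured on 6 arrays of 3 lines. The deposited values are log2 signals of 53617 probe sets. The submitters' processing notes list Affymetrix Expression Console 1.4, RMA and Transcriptome Analysis Console 3.0, without saying what each did. RMA, if used with its quantile step, equalizes the arrays and would hide a change common to most genes. The log2 scale was read from the values and the named method.

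Names came from the platform annotation, in which 16098 probe sets had 1 symbol, 0 several, and 37519 were unnamed here. For genes with several probe sets the one with the highest mean was kept (14884 genes), and genes with a mean of at least 5 were tested (8620). All 5 members passed, CCL20 and CXCL3 only through SKOV-3 and CXCL8 only through SKOV-3 and ES-2.

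limma 3.58.1 in R 4.3.3 (lmFit, eBayes, two-sided, Benjamini-Hochberg) was fitted on all tested genes with line and transfection as terms, and the procedure was tested on simulated data. The arrays of a line are paired because they come from 1 line. Figures were drawn with matplotlib 3.10.9. Members, gene lists and motifs were chosen with earlier results of these data known. Genes named were the members, the related ligands and receptors, up to 4 per other list with the largest difference in any line, and the 3 closest to each member. Small RNA genes were left out of the closest genes. Alternatives were other filters, normalizations, blocks and variance settings, and each array or line left out; the line gaps on the miR-135a-3p arrays alone were added after the data were seen.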

Additional observations from a re-analysis of the deposited data

Results flagged for a closer look

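CXCL2, CXCL3, CXCL8 and LIF had transfection differences of opposite sign in different lines, with at least 1 of them past 2-fold, a threshold chosen after the results were seen. How far the lines differ in this was not tested, because a single array stands for each line and transfection. The log2 differences of CXCL2 were 0.23 (ES-2) and −2.21 (SKOV-3). CXCL3 had 0.0067 in ES-2, which turned to −0.005 after quantile normalization, and −1.38 in OVCAR-3, where the miR-135a-3p array lay below the array median. CXCL8 had 0.32 in OVCAR-3, below the array median on both arrays, and −2.74 in SKOV-3. LIF had 1.17 in OVCAR-3, where the miR-blank array lay near the array median, and −0.27 in ES-2. Among the other genes named by rule, KRT7, a keratin of glandular epithelia, passed 2-fold in opposite directions, with 1.03 in OVCAR-3 and −1.53 in SKOV-3.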

How the results depend on the processing

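Without variance moderation, 0 of the 5 genes were called between any lines, and 4 genes in all were called for SKOV-3 minus ES-2, 0 for SKOV-3 minus OVCAR-3, 0 for ES-2 minus OVCAR-3 and 0 for transfection over lines. For SKOV-3 minus ES-2, 1 of the 5 genes was called with no filter, with a mean of at least 6 (CCL20 was not tested there), after quantile normalization and at equal array medians, against 2 as reported. For SKOV-3 minus OVCAR-3, 3 of the 5 were called with a mean of at least 6, where CXCL3 and CCL20 were not tested. With each array left out, the 5 genes gave 1 to 3 calls for SKOV-3 minus ES-2, 3 to 5 for SKOV-3 minus OVCAR-3 and 1 to 3 for ES-2 minus OVCAR-3. Over all genes, SKOV-3 minus OVCAR-3 gave 808 to 1409 calls, with 817 without the OVCAR-3 miR-blank array and 808 without its miR-135a-3p array. The transfection count over lines was 1 to 4 with each line left out, 4 being without SKOV-3. Uncalled line differences that changed sign were CXCL8 in SKOV-3 minus ES-2, −0.84 to 1.70 with each array left out, LIF in the same contrast, −0.44 to 0.76, and CCL20 in ES-2 minus OVCAR-3, −0.54 to 1.09, and −0.19 after quantile normalization. The cause was not tested. Among single values, 236 kept their side of the threshold or, where not tested, moved by less than the spread, 20 lost the call, 3 gained it and 5 reversed; gaps on the arrays of 1 transfection are not counted, since they lie within their spread by construction. Untested values that changed sign were the SKOV-3 minus ES-2 gap of CXCL8 on the miR-135a-3p arrays (−0.58) and of LIF on the miR-blank arrays (−0.32), and the mean of CXCL2 without SKOV-3 (0.20). The within-line transfection differences of the 5 genes kept their direction under quantile normalization, equal medians and the mean over probe sets, except CXCL3 in ES-2, which was near 0 throughout (−0.005 after quantile normalization). The array pairs of a line are blocked by line, and without that block the transfection count was also 1. With 1 array per line and transfection, no within-line difference has a replicate. Signals near or below the array median limit CXCL8, CXCL3 and LIF in OVCAR-3, and CCL20 outside SKOV-3.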
